A study of Mus musculus with 3 samples.

Results

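The 9 genes described here encode the core of the mitochondrial apoptosis machinery. They are the effectors Bax and Bak1, the survival genes Bcl2 and Bcl2l1, the BH3-only genes Bcl2l11, Bbc3 and Hrk, and the apoptosome genes Apaf1 and Casp9. They were taken as a named list and not by any measured value, but with earlier results of these data known. All 9 were among the 16402 genes listed in the raw matrices of all 3 libraries (19946 genes were listed in at least 1 library).

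In this pathway, BH3-only proteins are made or activated when a cell is damaged or loses trophic support. They bind the survival proteins Bcl-2 and Bcl-xL, which otherwise hold the effectors in check. Freed Bax and Bak open the outer mitochondrial membrane, cytochrome c leaves, and Apaf-1 joins it in a complex, the apoptosome, that activates caspase-9. In the mouse retina, many retinal ganglion cells (RGCs), amacrine cells and bipolar cells die in this way around and after birth, and mice that lack Bax keep surplus RGCs. The proteins are controlled to a large degree after translation, so that the levels below are those of the transcripts alone.

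Cells were profiled in 3 MULTI-seq libraries, in which lipid-bound barcodes mark the cells of each sample before pooling. The explant library held wild-type CD1 retinas taken at embryonic day 14 and cultured for 6 days, to an age matching P0, with 0, 5, 50 or 500 nM of an Sstr2 agonist (2 samples a dose, 8 in all). The P0 library and the P14 library each held uncultured retinas of the C57BL/6 / CD1 background from an allelic series of a germline Sstr2 deletion: 1 Sstr2 +/+, 2 Sstr2 +/- and 2 Sstr2 -/- samples (5 in all). The words explant and retina stand for these samples below. The number of retinas in a sample is not given in the sources used here, so that p-values measure only the spread between these samples. Each age and the culture were a single library, so that age or culture cannot be told apart from the library, nor, for the explants, from strain, Sstr2 genotype and agonist.

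The libraries held 5607 explant cells with 22638572 UMIs, 5706 P0 cells with 50516460 UMIs and 3298 P14 cells with 16851397 UMIs. Median UMIs per cell were 3925 to 4317 in the explants, 7258.5 to 8541 in the P0 retinas and 3381 to 3729.5 in the P14 retinas, and the libraries shared 4 to 9 cell barcodes. The explant cells held at most 2499 genes, and only 2176 of the 5706 P0 cells (38.1%) lay at or below that limit. Results for the explants are therefore also given with these P0 cells alone, where they could be tested and differ. Over all cells this choice can change the mix of P0 cell types as well as the depth. The part of each in such values was not tested. Mitochondrial genes took 5.77% to 7.20% of the UMIs of an explant, 3.87% to 4.11% of those of a P0 retina and 6.15% to 8.79% of those of a P14 retina. In every deposited type of every library at least 4 of its 5 or 6 markers were highest in that type. The authors named the clusters by marker expression in these same cells, so that this check could hardly fail. It cannot show that a type is free of transcripts of others. In P0 photoreceptors, primary progenitor markers summed to 1132 to 1917 CPM and photoreceptor markers to 1333 to 1611 CPM. The RGC cluster of the explants stood apart from that of the P0 retinas. It held 11.5% to 20.5% mitochondrial UMIs in each explant against at most 4.64% in each P0 retina, and 3357 UMIs per cell against 26945. The RGC markers Sncg (a synuclein) and Nefl were at 316 and 298 CPM against 3188 and 2285 CPM. Pou4f1, Rbpms and Pou4f2 were at 419, 371 and 56.6 CPM against 685, 727 and 99.1 CPM. Isl1, from the same list, was higher in the explant cluster, at 779 against 361 CPM. The paper describes its explants as lacking viable RGCs. Amacrine markers summed to 827 to 1364 CPM in the explant cluster against 518 to 534 CPM in that of the P0 retinas. Results for RGCs in explants are therefore read beside these values, whose part in them was not tested.

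The stretches just before a transcription start of 3 members are shown: Bax, Bbc3 (also known as Puma) and Hrk (also known as Harakiri). Bax set the 3 libraries apart over all cells, and Bbc3 and Hrk had their highest P0 means in RGCs. Hrk rests on few UMIs, and other members, Bcl2 among them, also set types or ages apart below. Each stretch is the 250 bases before a RefSeq transcription start on GRCm38.p6, read 5′ to 3′ on the strand of the gene. For Bbc3 the first of the 3 listed starts is given. The Bbc3 and Hrk windows lie within the GENCODE gene positions given below, whose first base comes before these RefSeq starts. Capitals mark the GC box GGGCGG and the E-box CACGTG on either strand.
Bax, chr7:45466899-45467148, minus strand: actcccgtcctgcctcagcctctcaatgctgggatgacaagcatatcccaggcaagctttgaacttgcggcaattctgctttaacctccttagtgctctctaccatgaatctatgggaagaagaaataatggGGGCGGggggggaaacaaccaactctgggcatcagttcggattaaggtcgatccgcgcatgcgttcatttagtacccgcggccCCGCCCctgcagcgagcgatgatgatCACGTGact
Bbc3, chr7:16309333-16309582, plus strand: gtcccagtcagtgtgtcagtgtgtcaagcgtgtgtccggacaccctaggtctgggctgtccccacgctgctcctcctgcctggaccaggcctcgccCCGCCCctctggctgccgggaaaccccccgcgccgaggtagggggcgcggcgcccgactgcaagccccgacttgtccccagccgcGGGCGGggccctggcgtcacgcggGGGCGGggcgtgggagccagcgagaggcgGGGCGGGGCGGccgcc
Hrk, chr5:118169514-118169763, plus strand: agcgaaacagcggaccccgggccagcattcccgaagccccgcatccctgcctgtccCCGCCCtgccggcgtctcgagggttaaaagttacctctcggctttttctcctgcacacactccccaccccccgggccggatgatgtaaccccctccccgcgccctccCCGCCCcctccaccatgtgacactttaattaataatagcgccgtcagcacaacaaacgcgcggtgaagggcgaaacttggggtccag

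The Bax window held 2 GC boxes and 1 E-box, the Bbc3 window 5 GC boxes and the Hrk window 2. Of 32851 windows of this length in the whole table, 32.7% held a GC box and 6.02% this E-box. Searches for CCAAT (33.9% of windows), TGANTCA (6.75%) and TATAAA (12.4%) matched none of the 3 windows shown. The Bbc3 window was 76.4% G or C and the Bax window 54.0%, against a median of 52.4%. These matches are a description of the letters and not of any factor bound there.

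On GRCm38 the members lie apart from each other except that Bax (chr7:45461697-45466898) and Bbc3 (chr7:16308393-16318205) share chromosome 7, and Bcl2l1 (chr2:152780668-152831728) and Bcl2l11 (chr2:128126038-128162547) share chromosome 2. Bak1 (chr17:27019810-27029009) lies wholly within Ggnbp1 on the opposite strand. The others are Bcl2 (chr1:106538178-106714274), Hrk (chr5:118164648-118189478), Apaf1 (chr10:90989311-91082770) and Casp9 (chr4:141793612-141815976).

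Levels are given as CPM, the UMIs of a gene per 1000000 UMIs of the same cells, after summing the raw UMIs of all cells of a type in an explant or retina. The counts come from transcript 3′ ends and are not scaled by gene length, so that levels are compared for the same gene between types, ages and cultures and not between genes. In all cells together, fewer cells of a type and less RNA per cell cannot be told apart. Differences between cell types of 1 library are described by their ranges, with no test.

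Bax, the effector that most neurons depend on to die, was the member with the most UMIs in each library (6149, 8470 and 1693 in explants, P0 and P14). Over all cells its level was 305 and 287 CPM in the explants at 0 nM, 282 and 276 at 5 nM, 228 and 257 at 50 nM, and 263 and 255 at 500 nM. In the P0 retinas it was 161 CPM in the Sstr2 +/+ retina, 161 and 166 in the Sstr2 +/- retinas, and 186 and 168 in the Sstr2 -/- retinas. In the P14 retinas it was 106 CPM in the Sstr2 +/+ retina, 95 and 97.1 in the Sstr2 +/- retinas, and 90.005 and 109 in the Sstr2 -/- retinas. The 3 libraries did not overlap: every explant lay above every P0 retina, and every P0 retina above every P14 retina. The plot of levels by explant or retina shows this beside the other 8 members. The share of all genes with such a separation, here and below, was not counted. By the tests below, 78.5% of all genes passed for P14 against P0 and 61% for explants against P0.

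**Figure D1:**
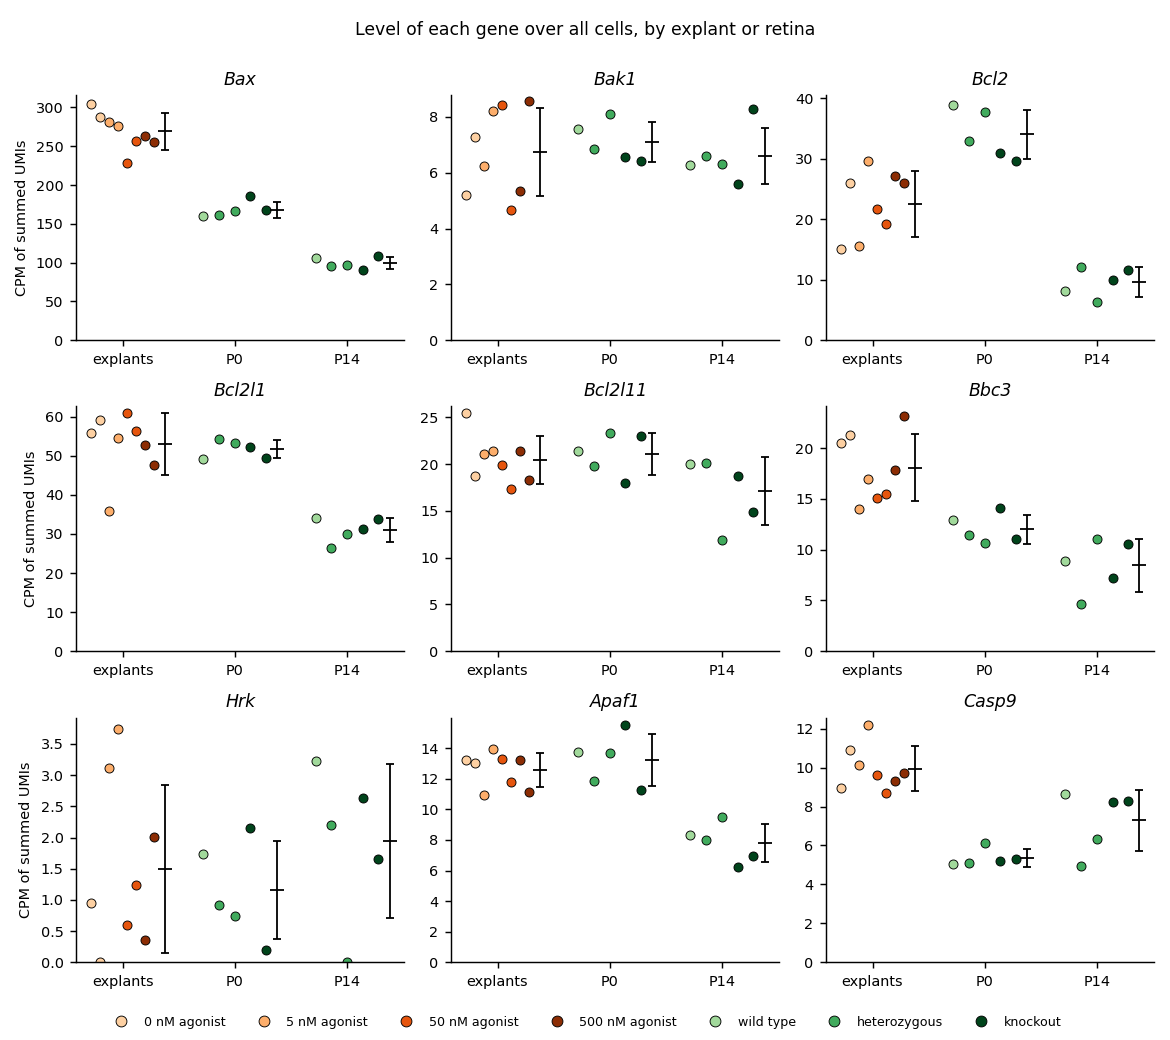
Level over all cells of each of the 9 genes (y axis, CPM of summed UMIs, starting at 0) in the 8 explants, 5 P0 retinas and 5 P14 retinas; points are samples, coloured by agonist dose or Sstr2 genotype, and the bar to their right is the mean with 1 SD. Bax separates the 3 libraries (228 to 305, 161 to 186 and 90.005 to 109 CPM), Bcl2 and Bcl2l1 are lowest at P14, and Casp9 is highest in the explants (8.68 to 12.2 CPM).

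By cell type, Bax at P0 was highest in amacrine cells, inhibitory interneurons of the inner retina, at 285 ± 15 CPM (SD, n = 5, range 269 to 308). RGCs followed at 209 ± 25.3, and their range did not overlap that of the amacrine cells. Photoreceptors were at 179 ± 5.79 and neurogenic progenitors at 155 ± 24.6, with overlapping ranges, and primary progenitors were lowest at 128 ± 10.2. The explants kept amacrine cells at the top at 367 ± 37.3 CPM (n = 8, range 311 to 416), above the range of the next type, the neurogenic progenitors (224 to 295), and primary progenitors averaged 206 ± 30.5, next to RGCs at 206 ± 71.3. At P14 the ranges of Muller glia (129 ± 17.2 CPM), bipolar cells (106 ± 28.1), cones (103 ± 19.8) and rods (85.1 ± 4.59) overlapped between neighbours in that order. Amacrine cells no longer stood out at P14 (0 to 127 CPM), but 4 to 23 cells a retina carried that value.

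Bak1, the other effector, was a low-count gene with 151, 360 and 111 UMIs in explants, P0 and P14. At P0 it was higher in primary progenitors (9.52 ± 1.23 CPM) and RGCs (9.74 ± 4.70) than in the other types, which lay at 3.70 to 4.18 on average. Primary progenitors of the explants (11.6 ± 4.22) and Muller glia at P14 (10.3 ± 2.06) were again at the top of their libraries, with ranges that overlapped the next type.

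Bcl2, the founding survival gene, had its highest mean in primary progenitors at P0 and in the explants, and in Muller glia at P14. At P0 it was 48.9 ± 6.79 CPM in primary progenitors (range 42.1 to 56.9), above the range of every other type there, with neurogenic progenitors at 22.6 ± 4.44, amacrine cells at 18.5 ± 2.39, photoreceptors at 15.1 ± 4.23 and RGCs at 9.28 ± 2.97. Primary progenitors led in the explants too (40.1 ± 8.21), and photoreceptors there were at 4.57 ± 2.34. At P14 Muller glia, the radial glia of the mature retina, averaged 20.3 ± 11.2 CPM, but individual retinas ran from 6.75 to 32.2, and rods were at 5.92 ± 1.17. The Muller glia range overlapped those of all other P14 types, among them cones (0 to 22.4) and amacrine cells (0 to 15.5). By the mean over single cells, amacrine cells were highest at P14.

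Bcl2l1, which encodes Bcl-xL, had a different order. Photoreceptors were highest at P0 (78.9 ± 4.99 CPM, range 73.8 to 85.7) and in the explants (85.3 ± 18.8), and primary progenitors were lowest in both (41.1 ± 1.58 and 36.5 ± 6.43). The range of P0 photoreceptors overlapped that of RGCs (65.3 ± 16.1) and lay above those of the other 3 types. At P14 all types averaged 25.2 to 33.2 CPM and overlapped. At P0 and in the explants the type with the highest mean for Bcl2, primary progenitors, had the lowest mean for Bcl2l1.

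Bbc3, a BH3-only gene known as a target of p53 and of trophic withdrawal, was an RGC transcript at P0. The 5 P0 retinas held 123, 131, 125, 88.6 and 80.4 CPM in RGCs (in the order Sstr2 +/+, the pair of +/- and the pair of -/- retinas), from 36 to 66 UMIs each. Amacrine cells were at 21.9 ± 3.64 CPM, photoreceptors at 7.53 ± 3.01, neurogenic progenitors at 3.86 ± 2.60 and primary progenitors at 3.64 ± 1.04. The lowest RGC value lay above every value of every other type at P0. At P14 bipolar cells held the highest mean, 29.4 ± 15.1 CPM (34.2, 18.5, 53.9, 20.6 and 19.6 in the same order of genotypes), while rods were at 2.92 ± 1.39 and cones held 1 UMI in all. The RGC markers Pou4f1, Pou4f2, Sncg, Nefl and Rbpms were between 0 and 6.94 CPM in these bipolar cells, whose Isl1 (a factor of both types) was at 1244 CPM.

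Hrk, a BH3-only gene known mainly from neurons, had 36, 57 and 40 UMIs in explants, P0 and P14. At P0, 35 of the 57 UMIs were in the 85 RGCs, at 27.0, 11.9, 20.3, 18.3 and 2.23 CPM by retina, and the level was 25.3 times that in amacrine cells (95% exact interval from counting error 9.88 to 82.8, on 35 and 5 UMIs). In the explants 19 of the 36 UMIs were in RGCs, at 0 to 56.0 CPM with 4 of 8 explants at 0. The mean over samples was 16.5 CPM against 15.9 CPM in P0 RGCs, and the level of the pooled UMIs 28.3 against 15.3 CPM. Neurogenic progenitors held 0 UMIs of 5472375 at P0, which allows up to 0.548 CPM (3 UMIs over the group), and 0 UMIs of 3087120 in the explants. At P14, bipolar cells (5.38 ± 3.25 CPM) and amacrine cells (0 to 18.6 CPM) were highest. No P14 cluster was named RGCs. The P14 amacrine cells also held Sncg at 253, Rbpms at 33.7 and Pou4f1 at 29.8 CPM, against 7.12, 4.34 and 0.724 in those of P0. Nefl was at 467 against 82.7 CPM and Pou4f2 at 7.78 against 0.362 CPM, while Isl1 was at 29.8 against 33.1 CPM. The part of these markers in the Hrk level was not tested.

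Bcl2l11, which encodes the BH3-only protein Bim, was found in all types at P0, with the lowest level in RGCs. P0 primary progenitors held 25.5 ± 3.61 CPM, and amacrine cells and photoreceptors 16.7 ± 4.10 and 16.6 ± 1.06. The 5 P0 retinas held 4 UMIs in RGCs in all, a level 0.0683 times that of primary progenitors (95% exact interval 0.0186 to 0.176, counting error only). At P14 Muller glia had the highest mean, with 42.5, 42.0, 20.2, 35.6 and 31.7 CPM, each above every rod value (13.2 to 17.7). The range of cones (0 to 22.4 CPM) overlapped that of Muller glia.

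Apaf1, the scaffold of the apoptosome, was even at P0: the 5 types averaged 11.9 to 15.7 CPM with overlapping ranges. Casp9, the protease that it activates, had 225, 271 and 127 UMIs. At P0 RGCs (11.4 ± 4.27 CPM) and photoreceptors (8.19 ± 2.66) were at the top, and primary progenitors at the bottom (4.06 ± 0.359). In the explants photoreceptors were at 16.2 ± 4.51 CPM, and RGCs ran from 0 to 48.5 CPM, with 5 of 8 explants at 0 UMIs.

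**Figure D2:**
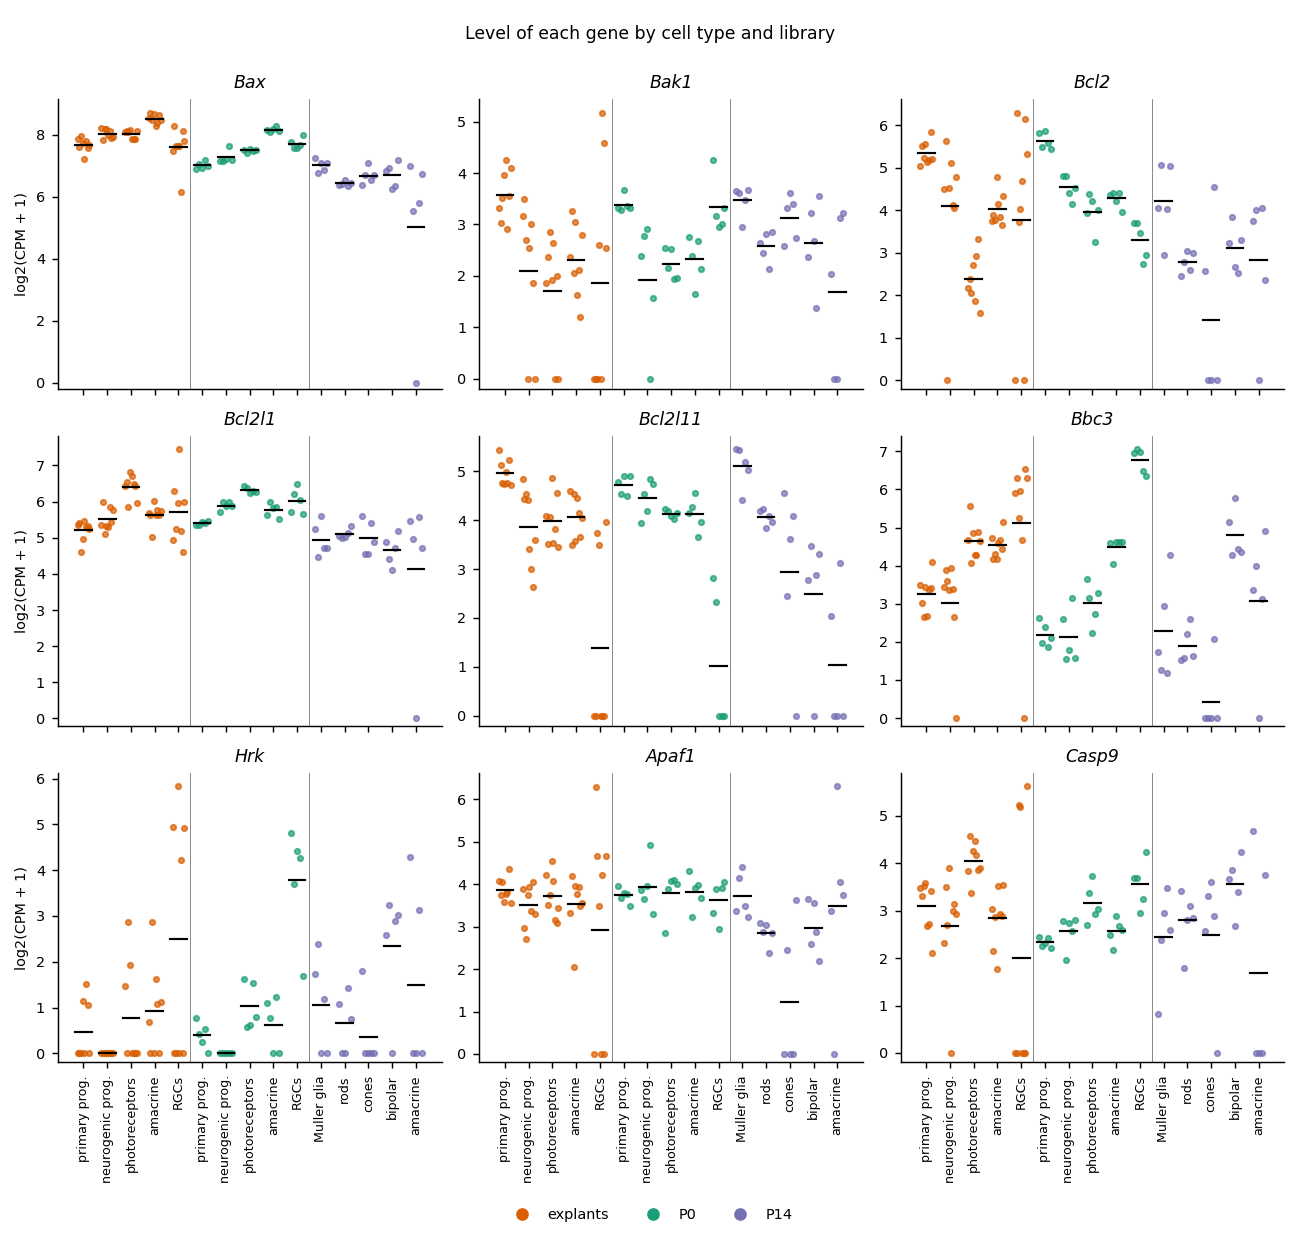
Level of each gene by cell type (x axis) as log2(CPM + 1) (y axis), with points for single explants or retinas and a line at their mean; colours are the libraries. Bbc3 stands highest in P0 RGCs and Hrk in RGCs of P0 and of the explants, Bcl2 in primary progenitors, Bcl2l1 in photoreceptors, Bax in amacrine cells before P14, and Bcl2l11 in Muller glia at P14.

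The comparison of P14 with P0 asks how these genes stood once neurogenesis had ended. Over all cells, 6 of the 9 members were lower at P14 and 0 were higher by the edgeR quasi-likelihood test (adjusted p under 0.05 over 13066 genes). In that comparison 78.5% of all genes tested passed, 38.8% as lower at P14, so that a gene past the threshold was the rule. The values below describe direction and size. Hrk and Casp9, which did not pass, had higher means at P14. The median log2 fold change of the 9 members was -0.66 and that of all genes 0.02. Cell makeup differed as much as age: 49.0% of P0 cells were primary progenitors, and 68.9% of P14 cells were rods. Median UMIs per cell were 3381 to 3729.5 in the P14 retinas and 7258.5 to 8541 in the P0 retinas. No setting with P0 cells of a lower gene range was run for P14 against P0. The part of depth in the values below, over all cells or within types, was not tested.

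Bcl2 fell most among the survival genes, from 34 ± 4.07 to 9.60 ± 2.41 CPM, a log2 fold change of -1.90 ± 0.14 (SE; adjusted p = 1.71e-08). The P14 retinas held 6.32 to 12.1 CPM and the P0 retinas 29.7 to 38.8, with no overlap. Bcl2l1 fell by 0.84 on the log2 scale (SE 0.07, adjusted p = 1.02e-07), from 51.7 ± 2.24 to 31.1 ± 3.1 CPM. Bax fell by 0.87 (SE 0.06, adjusted p = 1.61e-08), nearly the same step as Bcl2l1. Apaf1 fell by 0.89 (SE 0.15, adjusted p = 5.96e-05), from 13.2 ± 1.69 to 7.79 ± 1.25 CPM.

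Among the BH3-only genes, Bbc3 fell by 0.66 (SE 0.18, adjusted p = 0.00427), with P0 retinas at 10.6 to 14.1 CPM and P14 retinas at 4.68 to 11.1, which overlapped. In the SCTransform values this was -0.35 (adjusted p = 0.133). RGCs held 243 of the 603 Bbc3 UMIs at P0, and no P14 cluster was named RGCs. The part of this in the fall of Bbc3 was not tested. Bcl2l11 fell by 0.35 (SE 0.12, adjusted p = 0.0179), but its call was lost with scaling by library size alone (-0.24, adjusted p = 0.0927) and without the Sstr2 -/- retinas (adjusted p = 0.0778). Hrk was at 0.203 to 2.15 CPM at P0 and 0 to 3.23 at P14 and did not pass (adjusted p = 0.129). Its pooled level at P14 was 2.10 times that at P0 (95% exact interval 1.37 to 3.21, counting error only, on 40 and 57 UMIs). Leaving out 1 P0 retina, Sstr2 -/- replicate 1, which had the highest Hrk level at P0, brought Hrk to a log2 fold change of 1.2 (adjusted p = 0.0496). Bak1 (7.10 ± 0.712 and 6.61 ± 1.00 CPM) and Casp9 (5.36 ± 0.452 and 7.28 ± 1.59 CPM) did not pass (adjusted p = 0.197 and 0.0611). Bak1 passed as lower in the SCTransform values (-0.39, adjusted p = 0.0163). Casp9 passed as higher at P14 with scaling by library size alone (0.47, adjusted p = 0.0219) and without P14 Sstr2 +/- replicate 1 (0.47, adjusted p = 0.0127).

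Within cell types the falls were uneven. P14 rods were set against P0 photoreceptors, a class that holds the precursors of rods and cones, and 6 of the 9 members were abundant enough to test. Bax, Bcl2, Bcl2l1 and Apaf1 passed, all lower, where 72.8% of all genes tested passed. Bax went from 179 ± 5.79 to 85.1 ± 4.59 CPM (log2 fold change -0.92, adjusted p = 2.54e-10), and Bcl2l1 from 78.9 ± 4.99 to 33.2 ± 3.31 (-1.09, adjusted p = 5.10e-09). Bcl2 fell by 1.29 (adjusted p = 0.000109). Primary progenitor markers, whose type held the most Bcl2 at P0, summed to 1132 to 1917 CPM in P0 photoreceptors and 39.4 to 74.2 CPM in P14 rods, and their part in the fall of Bcl2 was not tested. Apaf1 fell by 0.89 (adjusted p = 0.00494), a call lost without the Sstr2 -/- retinas (-0.63, adjusted p = 0.119). Bcl2l11 was at 16.6 ± 1.06 and 15.7 ± 1.87 CPM (adjusted p = 0.533), and Casp9 at 8.19 ± 2.66 and 6.41 ± 2.66 CPM (adjusted p = 0.556).

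P14 cones against the same P0 class gave 2 members of 4 tested, where 56.3% of genes passed. Bax was lower by 0.85 (adjusted p = 2.86e-06) and Bcl2l1 by 1.08 (adjusted p = 5.06e-05). Bcl2 had 9 UMIs in the P14 cones and did not pass (adjusted p = 0.115), but passed as lower without P14 Sstr2 -/- replicate 1 (-2.65, adjusted p = 0.00531), without all Sstr2 -/- retinas (-2.52, adjusted p = 0.00943) and with no filter on low counts (-1.14, adjusted p = 0.0463). Bcl2l11 did not pass (-0.30, adjusted p = 0.544), and passed as lower in the SCTransform values (-2.64, adjusted p = 0.0294). For Bcl2l1 the call was lost in the SCTransform values (adjusted p = 0.111).

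P14 Muller glia against P0 primary progenitors, the class from which glia arise, gave 3 members of 7 tested, where 71.1% of genes passed. Here Bcl2l11 was higher at P14, at 34.4 ± 9.12 against 25.5 ± 3.61 CPM (log2 fold change 0.50, adjusted p = 0.00944). That call was lost without P14 Sstr2 +/+ replicate 1 (adjusted p = 0.0969) or without P14 Sstr2 +/- replicate 1 (adjusted p = 0.0957), and with no filter on low counts (0.33, adjusted p = 0.0736), and the direction turned in the SCTransform values (-0.84, adjusted p = 0.467). Bcl2 fell by 1.25 (adjusted p = 4.37e-05), and Bcl2l1 fell by 0.54 (adjusted p = 0.00292), the latter a call lost without the Sstr2 -/- retinas (-0.38, adjusted p = 0.113). Bax was 128 ± 10.2 and 129 ± 17.2 CPM, with a log2 fold change of -0.04 (95% interval -0.25 to 0.16, adjusted p = 0.834), the narrowest interval among the members tested there. Bak1 (0.14, adjusted p = 0.601), Apaf1 (-0.19, adjusted p = 0.501) and Casp9 (0.12, adjusted p = 0.817) did not pass.

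Amacrine cells were named at both ages. Of 6 members tested, Bax and Bcl2l11 passed as lower at P14, where 41.4% of genes passed. Bax went from 269 to 308 CPM at P0 to 127, 45.1, 0, 54.3 and 104 CPM at P14, a log2 fold change of -1.68 (SE 0.33, adjusted p = 0.000176), and no P14 retina reached the lowest P0 value. It missed the threshold in the SCTransform values (adjusted p = 0.0631). Mitochondrial genes took 8.17% to 19.8% of the UMIs of P14 amacrine cells against 4.08% to 4.37% at P0, with 19.1% and 19.8% in the retinas at 0 and 54.3 CPM of Bax, and rod markers summed to 586 to 2318 CPM against 59.1 to 108 CPM. RGC markers summed to 0 to 1186 CPM (median 1018) in P14 amacrine cells against 81.5 to 190 CPM in those of P0. Muller glia markers summed to 264 to 3223 CPM against 116 to 144 CPM. The part of any of these in the falls of Bax and Bcl2l11 was not tested. Bcl2l11 rested on 2 UMIs at P14 against 140 at P0, a ratio of pooled levels of 0.154 (95% exact interval 0.0184 to 0.565, counting error only). Bcl2l1 did not pass (53.5 and 29.0 CPM on average, adjusted p = 0.140), and passed as lower in 5 of the alternatives, among them DESeq2 (-0.77, adjusted p = 0.0253). Bcl2 (-0.83, adjusted p = 0.162), Bbc3 (-0.51, adjusted p = 0.358) and Apaf1 (-0.24, adjusted p = 0.733) did not pass.

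The age effect was tested for a difference between lineages, rods against photoreceptors minus amacrine cells against amacrine cells, in which 31% of 10665 genes passed. Bax and Bcl2l11 passed among 7 members tested. Bax fell less in the rod comparison, by a difference of 0.92 in log2 fold change (SE 0.34, adjusted p = 0.0293), a call lost in 5 of 19 alternatives. These were library size alone (0.53, adjusted p = 0.160), SCTransform values (3.18, adjusted p = 0.158), no Sstr2 -/- retinas (0.73, adjusted p = 0.198), no P14 Sstr2 +/- replicate 1 (adjusted p = 0.0508) and neither of the P14 retinas that held 4 amacrine cells (0.69, adjusted p = 0.0608). The Bcl2l11 difference, 2.93 (adjusted p = 0.00268), rested on the same 2 UMIs. The part of the markers of other types in P14 amacrine cells, given above, was not tested for either gene. Bcl2, Bcl2l1, Bbc3, Apaf1 and Casp9 did not pass, with differences from -1.25 (Casp9) to -0.31 (Bcl2) and adjusted p of 0.151 to 0.755.

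**Figure D3:**
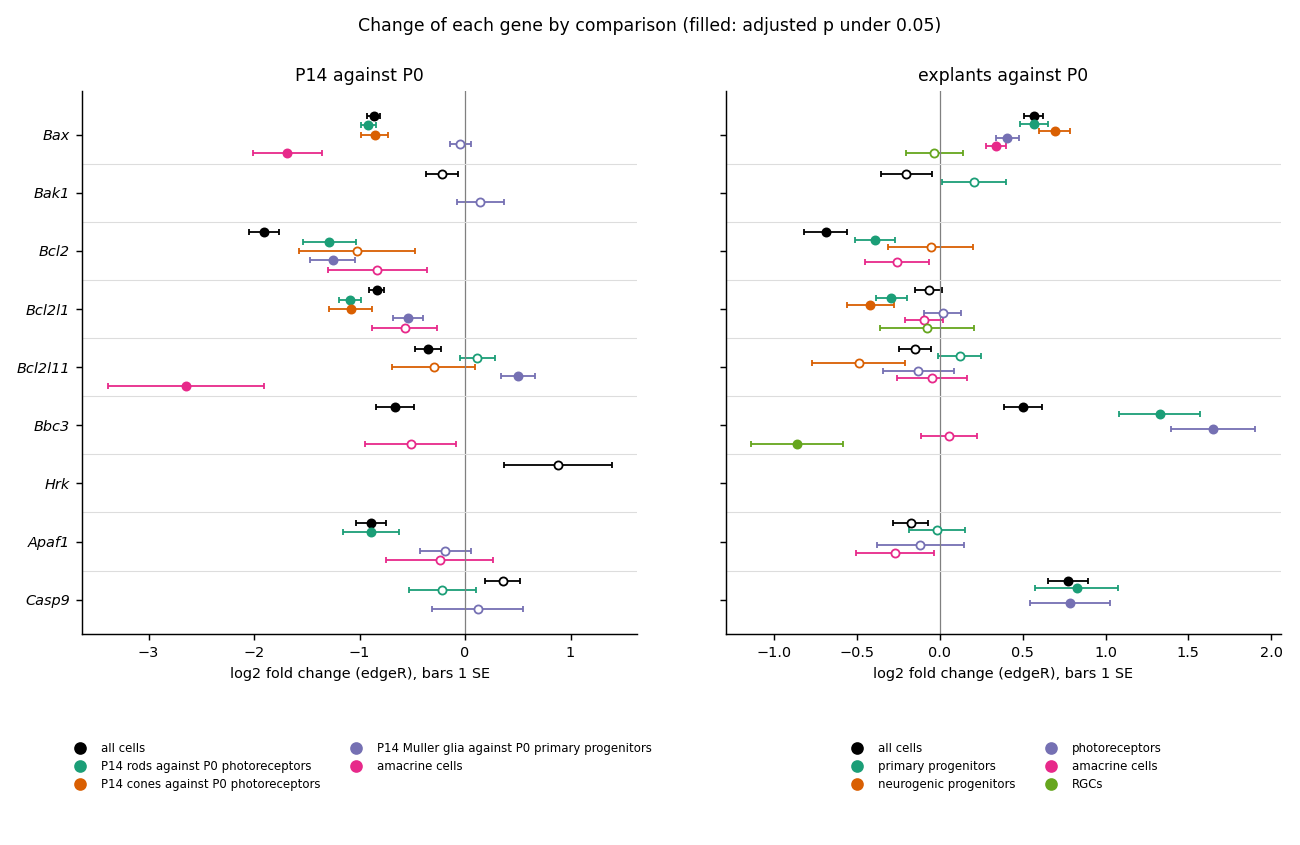
Log2 fold change of each gene (x axis, bars 1 SE) for P14 against P0 (left) and explants against P0 (right), over all cells and by cell type (colours); filled points had an adjusted p under 0.05 and missing points were too rare to test. Bax lies left of 0 in every P14 comparison, though at -0.04 in Muller glia, and right of 0 in every explant comparison except RGCs (-0.03), and Bbc3 spans -0.86 in RGCs to 1.65 in photoreceptors of the explants.

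The comparison of explants with P0 retinas sets tissue cultured to a P0 age beside tissue that reached it in the animal. It shares the 5 P0 retinas with the comparison of ages above. Over all cells, Bax, Bbc3 and Casp9 were higher in the explants and Bcl2 was lower, 4 of 8 members tested, where 61% of all genes tested passed and 30.3% passed as higher. The median log2 fold change of the tested members was -0.11 and that of all genes 0.01. Scaling by library size alone moved the median of all genes to 0.13 and the split of calls from 3559 higher and 3603 lower to 4684 and 2803, and the directions of these 4 members held. RGC markers summed to 80.1 to 209 CPM in an explant and 223 to 579 CPM in a P0 retina, and 30.2% of explant cells against 49.0% of P0 cells were primary progenitors. The part of either in the values over all cells was not tested.

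Bax was higher by 0.57 on the log2 scale (SE 0.06, adjusted p = 1.31e-07), and it kept its call in all 22 alternatives, with P0 cells in the gene range of the explant cells giving 0.55. Casp9 was at 8.68 to 12.2 CPM in the explants and 5.04 to 6.15 in the P0 retinas, with no overlap and a log2 fold change of 0.78 (SE 0.12, adjusted p = 2.14e-05). With P0 cells in the gene range of the explant cells it was 0.43 (adjusted p = 0.0544). Bbc3 was at 14.0 to 23.2 CPM in the explants and 10.6 to 14.1 in the P0 retinas, a log2 fold change of 0.50 (SE 0.12, adjusted p = 0.000969), and 1.36 with the P0 cells in that range. At P0, RGCs held 243 of the 603 Bbc3 UMIs, at 26945 UMIs per cell. With the P0 cells in that range, a retina had no RGC UMIs left. The part of this in the value of 1.36 was not tested.

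Bcl2 fell by 0.69 (SE 0.13, adjusted p = 0.000177), at 15.1 to 29.6 CPM against 29.7 to 38.8. With the P0 cells in the gene range of the explant cells the difference was gone (0.03, adjusted p = 0.914), and Bcl2l1, which did not pass over all cells (52.9 ± 7.97 and 51.7 ± 2.24 CPM, adjusted p = 0.472), was then lower by 0.40 (adjusted p = 0.00160). Bak1 (6.74 ± 1.59 against 7.10 ± 0.712 CPM), Bcl2l11 (20.5 ± 2.54 against 21.1 ± 2.23) and Apaf1 (12.6 ± 1.12 against 13.2 ± 1.69) did not pass. Bcl2l11 passed as lower (-0.22, adjusted p = 0.0489) without explant 0 nM replicate 1. Hrk was too rare to test.

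Within types, Bax was higher in 4 of the 5 types. The log2 fold change was 0.69 in neurogenic progenitors (262 ± 26.9 against 155 ± 24.6 CPM, adjusted p = 3.83e-07), where 35.4% of genes passed. It was 0.57 in primary progenitors (206 ± 30.5 against 128 ± 10.2, adjusted p = 5.27e-06), where 49.7% of genes passed. It was 0.41 in photoreceptors (257 ± 23.1 against 179 ± 5.79, adjusted p = 1.07e-05), where 48% of genes passed. It was 0.34 in amacrine cells (367 ± 37.3 against 285 ± 15, adjusted p = 5.44e-05), where 37.7% of genes passed. In each of these 4 types every explant lay above every P0 retina, and the call held in all 22 alternatives run. In RGCs, where 54% of genes passed, Bax was 70.4 to 310 CPM in the explants and 189 to 250 in the P0 retinas (adjusted p = 0.892). Primary progenitor markers summed to 145 to 431 CPM in explant photoreceptors against 1132 to 1917 CPM in P0 photoreceptors. Primary progenitors had the lowest means of Bax, Bbc3 and Casp9 at P0. The part of these markers in the photoreceptor values of the same genes was not tested.

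Bbc3 moved in opposite directions by type. Photoreceptors of the explants held 24.6, 45.9, 15.6, 28, 18.4, 18.4, 28.4 and 23.8 CPM in the order of dose, against 11.7, 7.92, 3.72, 5.69 and 8.66 CPM in the P0 retinas. Every explant lay above every P0 retina, with a log2 fold change of 1.65 (SE 0.26, adjusted p = 3.59e-06). Primary progenitors were at 5.24 to 16.1 against 2.63 to 5.18 CPM, a log2 fold change of 1.33 (SE 0.24, adjusted p = 7.07e-05). With the P0 cells in the gene range of the explant cells, the log2 fold change of Bbc3 was 1.55 in photoreceptors. Bbc3 was not tested in primary progenitors in that setting. RGC markers summed to 31.3 to 61.6 CPM in explant photoreceptors against 5.84 to 13.3 in P0 photoreceptors, and to 49.8 to 91.6 against 19.5 to 30.7 CPM in primary progenitors, so that transcripts of the type with the most Bbc3 were also higher there. Their part in the Bbc3 values was not tested. Neither was that of the primary progenitor markers given above for photoreceptors.

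In RGCs Bbc3 was lower in the explants, at 59.2, 77.4, 36.7, 61.1, 24.7, 0, 92.5 and 77.6 CPM from 0 to 16 UMIs each, against 80.4 to 131 CPM in the P0 retinas (log2 fold change -0.86, SE 0.28, adjusted p = 0.00805, a call lost in the SCTransform values, adjusted p = 0.0793). This is the cluster with the high mitochondrial share, the few UMIs per cell and the higher amacrine markers given above. Their part in this difference was not tested. In amacrine cells Bbc3 was 22.7 ± 5.76 against 21.9 ± 3.64 CPM, with a log2 fold change of 0.06 (95% interval -0.29 to 0.40, adjusted p = 0.827).

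Casp9 was higher in primary progenitors (log2 fold change 0.83, adjusted p = 0.00782) and in photoreceptors (0.79, adjusted p = 0.00885, and 0.46 with adjusted p = 0.119 in the SCTransform values), from 8.08 ± 2.87 against 4.06 ± 0.359 CPM and 16.2 ± 4.51 against 8.19 ± 2.66 CPM. In neither type was Casp9 tested with the P0 cells in the gene range of the explant cells. The part of the primary progenitor markers given above in the photoreceptor value was not tested. Bcl2l1 was lower in primary progenitors (-0.29, adjusted p = 0.0113) and in neurogenic progenitors (-0.42, adjusted p = 0.0206), and Bcl2 was lower in primary progenitors (-0.39, adjusted p = 0.00858). Scaling by library size alone ended both calls in primary progenitors (-0.17, adjusted p = 0.134 for Bcl2l1, and -0.27, adjusted p = 0.0557 for Bcl2). The Bcl2 difference was gone with the P0 cells in the gene range of the explant cells (0.03, adjusted p = 0.927). SCTransform values also ended both of these (adjusted p = 0.346 for Bcl2l1 and 0.0938 for Bcl2), and Bcl2l1 was at -0.64 with the P0 cells in the gene range of the explant cells. The Bcl2l1 call in neurogenic progenitors was lost with library size alone (-0.34, adjusted p = 0.0574), DESeq2 (adjusted p = 0.0503) and SCTransform values (-0.24, adjusted p = 0.219), and without explant 0 nM replicate 1 (adjusted p = 0.0526) or explant 5 nM replicate 2 (adjusted p = 0.0584).

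The other members tested within these types did not pass. They were Bak1, Bcl2l11 and Apaf1 in primary progenitors (log2 fold changes -0.02 to 0.21), Bcl2 and Bcl2l11 in neurogenic progenitors (-0.05 and -0.49), Bcl2l1, Bcl2l11 and Apaf1 in photoreceptors (-0.13 to 0.02), Bcl2, Bcl2l1, Bcl2l11 and Apaf1 in amacrine cells (-0.27 to -0.05) and Bcl2l1 in RGCs (-0.08). The smallest adjusted p among them was 0.180, for Bcl2l11 in neurogenic progenitors. Bcl2 was too rare to test in photoreceptors. It was at 1.99 to 8.98 CPM in those of the explants (24 UMIs) and 8.53 to 19.8 CPM in those of P0 (124 UMIs). The part of the primary progenitor markers given above in these values was not tested.

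The contrast of 0 nM explants with Sstr2 +/+ and +/- retinas, 2 against 3 samples, is free of agonist and of the homozygous deletion. There Bax kept its direction and call in the 4 types. The calls of Bbc3 in primary progenitors (adjusted p = 0.165) and RGCs (-1.24, adjusted p = 0.294), of Casp9 in primary progenitors (1.13, adjusted p = 0.0765) and photoreceptors (0.72, adjusted p = 0.215), of Bcl2 in primary progenitors (-0.60, adjusted p = 0.0750) and of Bcl2l1 in both progenitor types (-0.12 and -0.30, adjusted p = 0.727 and 0.517) were lost, with the directions kept. Over all cells the log2 fold change of Bcl2 was then -1.05.

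The culture effect was tested for a difference between amacrine cells and primary progenitors, in which 20.3% of 10094 genes passed. Among 8 members tested, Bbc3 differed by -1.23 in log2 fold change (SE 0.28, adjusted p = 0.00118), higher in explant progenitors but not in explant amacrine cells. It missed the threshold with the P0 cells in the gene range of the explant cells (-0.88, adjusted p = 0.351) and with 0 nM explants against Sstr2 +/+ and +/- retinas (-0.89, adjusted p = 0.400). Bax differed by -0.23 (SE 0.08, adjusted p = 0.0237), the smaller rise being that of amacrine cells, which had the higher level at P0, and this call was lost in 11 of 22 alternatives, 6 of which left out 1 sample (P0 Sstr2 +/+ replicate 1, +/- replicate 2 or -/- replicate 1, or explant 0 nM replicate 1, 5 nM replicate 2 or 50 nM replicate 2). Bcl2l1 did not pass (0.21, adjusted p = 0.379), but passed with the P0 cells in the gene range of the explant cells (0.95, adjusted p = 0.00605). Bak1, Bcl2, Bcl2l11, Apaf1 and Casp9 did not pass (adjusted p = 0.495 to 1.00).

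The ratio of Bax to Bcl2l1 UMIs in the same sample needs no scaling between libraries. It was computed after the levels of both genes had been seen. Over all cells it was 3.26 ± 0.227 at P0 (range 2.97 to 3.55) and 3.21 ± 0.257 at P14 (range 2.88 to 3.59), a difference well within the spread between retinas (exact two-sided permutation p = 0.762). In the explants it was 5.23 ± 1.18 (range 3.74 to 7.85), above every P0 retina (exact permutation p = 0.000777, the smallest that 8 against 5 samples can give, and adjusted p = 0.00622 over the 8 comparisons made).

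By type, explants and P0 retinas had ratios of 6.10 ± 1.72 and 2.66 ± 0.339 in neurogenic progenitors (exact permutation p = 0.00155, adjusted p = 0.00622). In primary progenitors they were 5.96 ± 2.13 and 3.11 ± 0.279 (exact permutation p = 0.00311, adjusted p = 0.00829), and in amacrine cells 7.63 ± 1.68 and 5.39 ± 0.705 (exact permutation p = 0.00544, adjusted p = 0.0109). An explant held 6 to 25 Bcl2l1 UMIs in neurogenic progenitors, 9 to 55 in primary progenitors and 10 to 85 in amacrine cells. Each P0 retina held at least 58 in each of these types. The ratio was not computed with the P0 cells in the gene range of the explant cells. Photoreceptors did not pass after adjustment (3.18 ± 0.935 and 2.28 ± 0.190, exact permutation p = 0.0334, adjusted p = 0.0535). P14 rods stood at 2.58 ± 0.291 (exact permutation adjusted p = 0.109 against P0 photoreceptors) and P14 Muller glia at 4.40 ± 1.01 (exact permutation adjusted p = 0.0635 against P0 primary progenitors).

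**Figure D4:**
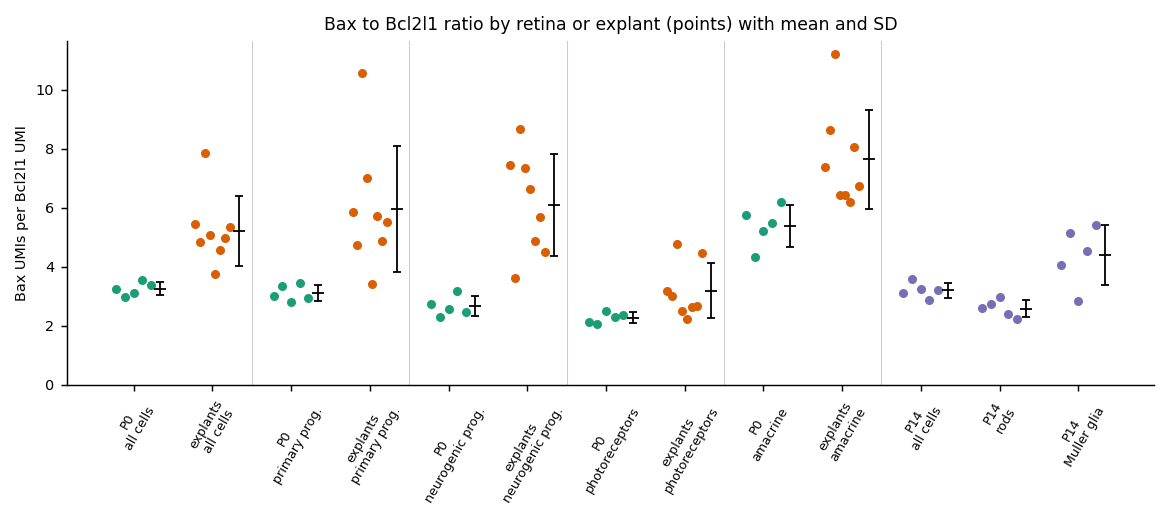
Bax UMIs per Bcl2l1 UMI (y axis, starting at 0) in each explant or retina (points), over all cells and by cell type (x axis), with the mean and 1 SD beside them; green is P0, orange the explants and purple P14. The explants lie at 3.74 to 7.85 over all cells, above the P0 retinas at 2.97 to 3.55, while the P14 retinas at 2.88 to 3.59 overlap those of P0.

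The agonist and the Sstr2 genotype were compared in the same way. None of the 8 members tested passed for 500 against 0 nM over all cells, and 0.193% of all genes tested did (22 of 11389), with 10.9% at an unadjusted p under 0.05. Bax was the nearest, with 263 and 255 CPM at 500 nM against 305 and 287 at 0 nM, both lower, a log2 difference of -0.20 (95% interval -0.38 to -0.02) and an adjusted p of 0.411. Bcl2 was at 27.1 and 26.0 against 15.1 and 26.0 CPM (log2 difference 0.46, 95% interval -0.08 to 1.00). For Bcl2l1, Bbc3 and Casp9 the intervals were -0.52 to 0.13, -0.43 to 0.40 and -0.61 to 0.55. No member passed within any of the 5 types. There 6 members were tested in primary progenitors, photoreceptors and amacrine cells, 3 in neurogenic progenitors and 1 in RGCs. Of all genes tested in these types, in that order, 29 of 8514, 7 of 7440, 22 of 8188, 6 of 6072 and 0 of 1056 passed.

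For Sstr2 -/- against +/- retinas at P0, 0 of 9 members passed and 0% of the 13721 genes tested (4.73% at an unadjusted p under 0.05, and 8 genes by DESeq2). At P14, 0 of 8 members passed and 0.00797% of genes. At P0 the intervals of the log2 difference were -0.06 to 0.27 for Bax, -0.48 to 0.02 for Bcl2, -0.28 to 0.11 for Bcl2l1 and -0.22 to 0.58 for Bbc3. At P14 they were wider, -0.35 to 0.31 for Bax and -0.77 to 1.35 for Bbc3. No member passed within any type, and the smallest adjusted p among them was 0.484, for Bbc3 in P0 RGCs, where the -/- retinas held 88.6 and 80.4 CPM and the +/- retinas 131 and 125 (log2 difference -0.59, 95% interval -1.05 to -0.13). A P0 type had 4 to 8 members tested, and 1 to 41 genes passed of 6994 to 11939 tested. A P14 type had 1 to 6 members tested, and 0 to 12 genes passed of 4715 to 9474 tested.

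A list of 52 other genes of the pathway gives the surroundings of these 9. At P14 against P0 over all cells, 44 were tested, 13 were higher and 22 lower, with a median log2 fold change of -0.38 and 78.5% of all genes past the threshold. In the explants against P0, 43 were tested, 11 were higher and 15 lower, with a median of -0.08 and 61% of all genes past the threshold.

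Among the partners of the effectors, Bok, a relative of Bax and Bak1, fell at P14 by 2.55 on the log2 scale (12.8 ± 1.43 to 2.21 ± 0.719 CPM) and in the explants by 2.26 (to 2.80 ± 0.753 CPM). Of the BH3-only genes, 4 were tested at P14, of which 1 rose and 3 fell. Bmf, which encodes a BH3-only protein tied to the cytoskeleton, rose from 0.660 ± 0.190 to 5.76 ± 1.52 CPM (log2 fold change 2.99), and Bik was at 5.62 ± 0.470 CPM at P0 with 3 UMIs in all at P14, a ratio of 0.0318 (95% exact interval 0.00651 to 0.0938, counting error only). In the explants Bik fell by 2.28 and Bid, the link from death receptors to mitochondria, was higher by 0.43 (adjusted p = 0.0219, a call lost without P0 Sstr2 +/- replicate 2, adjusted p = 0.0642).

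Survival genes and caspase inhibitors did not move as a block. Bcl2l2, which encodes Bcl-w, rose at P14 by 1.71 (9.95 ± 1.29 to 35.5 ± 3.75 CPM), where Bcl2 and Bcl2l1 fell. Xiap, an inhibitor of caspases, rose by 2.07 (54.4 ± 1.84 to 247 ± 14.8 CPM). Birc5, which encodes survivin and is also a gene of dividing cells, fell by 8.57 (258 ± 18.5 to 0.911 ± 0.696 CPM), and E2f1, a cell cycle factor, by 5.39. In the explants Birc5 fell by 1.83, but this turned with the P0 cells in the gene range of the explant cells (0.24, adjusted p = 0.183).

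Of the 4 caspases on the list, 1 rose and 3 fell at P14, and 2 fell in the explants. Casp8, the caspase of the death receptors, fell by 2.70 at P14 and by 2.26 in the explants (5.36 ± 0.461 CPM at P0, 1.19 ± 0.738 in the explants and 0.743 ± 0.529 at P14). Tradd, an adaptor of the same arm, was higher in the explants by 0.59. Ddit3, which encodes the stress factor CHOP, rose by 1.66 at P14.

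In the p53 arm, 8 genes were tested. At P14 3 rose and 3 fell, where 78.5% of all genes passed. In the explants 6 rose and 1 fell, where 61% of all genes passed and 30.3% as higher, and the arm as such was not tested. Those named by size in the explants were Sesn2 (1.12 higher, 1.56 ± 0.385 to 3.69 ± 0.843 CPM), Trp53inp1 (0.72 higher) and Ccng1 (0.50 higher), all known as p53 targets, against Cdkn1a, the p53 target that encodes the cell cycle inhibitor p21, which fell by 1.5 (27.5 ± 3.46 to 10.3 ± 5.33 CPM). With the P0 cells in the gene range of the explant cells Cdkn1a turned to 0.39 (adjusted p = 0.279) and Trp53inp1 was at 0.00 (adjusted p = 0.984), while Sesn2 kept its call. Sesn2 also rose at P14, by 2.00. The plot of the other genes of the pathway gives all of these by role.

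**Figure D5:**
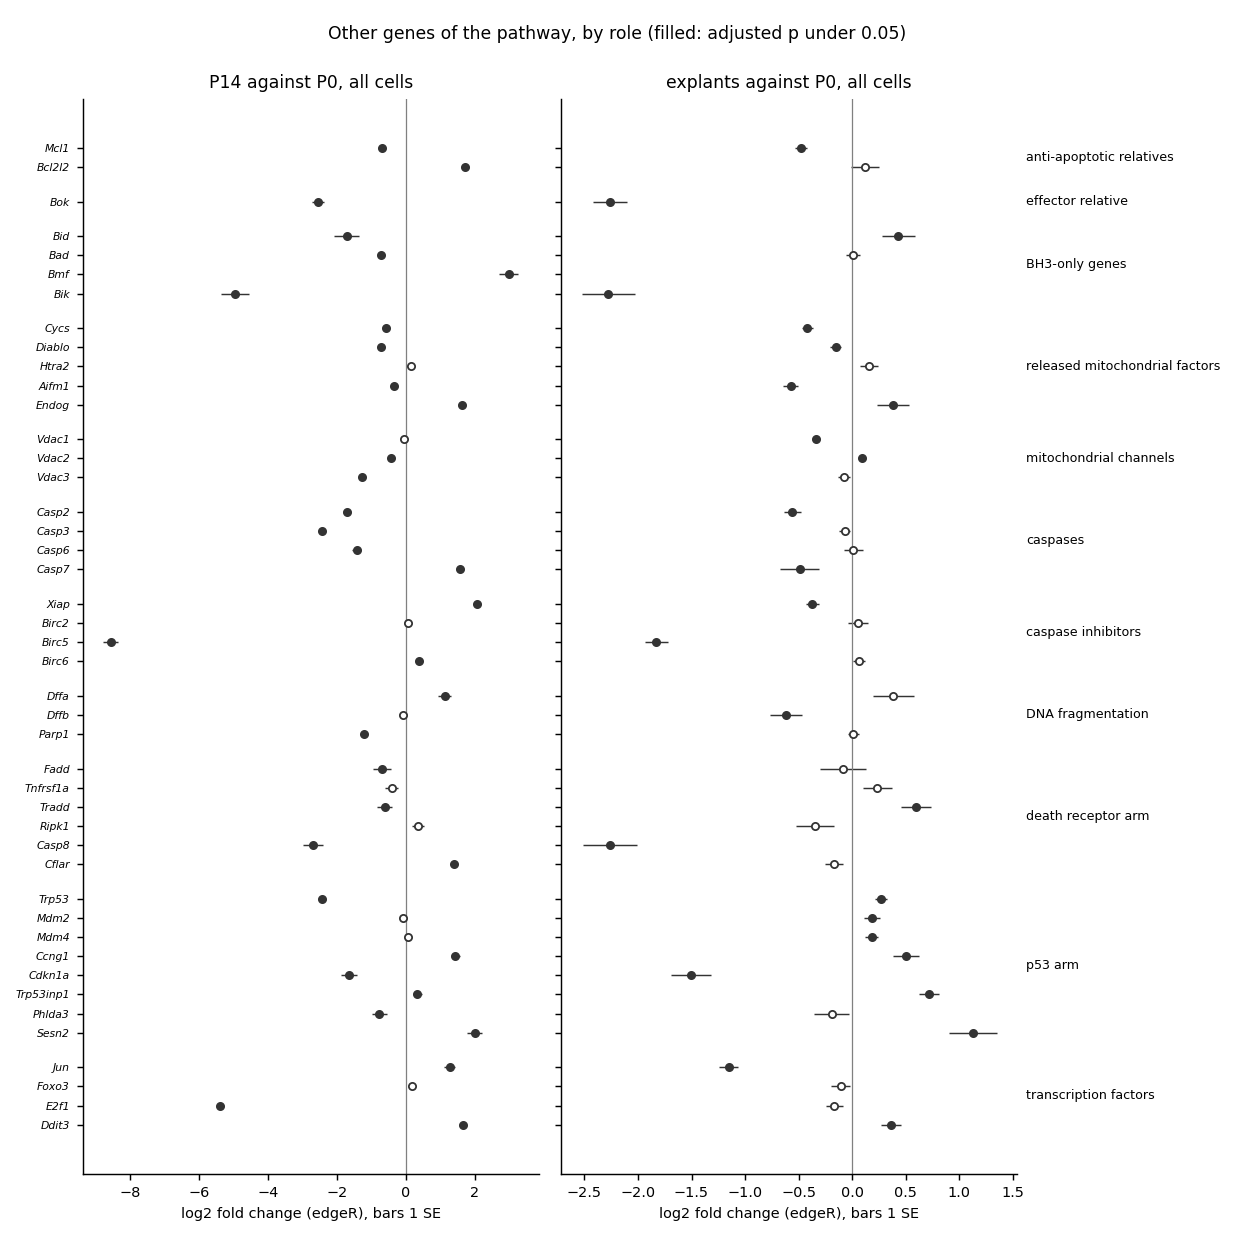
Log2 fold change (x axis, bars 1 SE, edgeR) of the other pathway genes abundant enough to test, grouped by role, for P14 against P0 (left) and explants against P0 (right) over all cells; filled points had an adjusted p under 0.05 and the axes differ in scale. At P14 Birc5 (-8.57) and E2f1 (-5.39) are farthest left and Bmf (2.99) farthest right, and in the explants 6 of the 8 genes of the p53 arm lie right of 0 with filled points.

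The genes most like each member in their pattern were sought by Pearson's correlation of log2(CPM + 1) over the 15 profiles of a type in a library, among 9335 genes with at least 100 UMIs in every library. These profiles share libraries and depth, and the correlations are a description. Bax was followed most closely by Rnf138 (r = 0.956), Spg21 (0.953) and Mospd1 (0.951). Bcl2l11 was followed by Socs4 (0.951), Bbc3 by Cask (0.944), Apaf1 by 1700037H04Rik (0.921) and Casp9 by Myo9a (0.919). Bcl2 was followed by Ttc32 (0.910), Bcl2l1 by Cplx2 (0.869) and Bak1 by Cs (0.819). Hrk had too few UMIs to be included.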

How the data were processed

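The explants, P0 retinas and P14 retinas were sequenced as 10x 3′ MULTI-seq libraries, and the submitters' processing notes name Cell Ranger 3.1.0, Seurat 3 and mm10. The deposited raw counts are whole UMI counts per gene and cell, which the authors left unnormalized after filtering cells and assigning them to samples. The deposited SCTransform values are on a natural log scale and were used in an alternative alone. Cell types, samples and conditions were the authors' annotation. The members and lists were chosen with earlier results of these data known.

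Raw UMIs were summed per explant or retina, over all cells and per type. Comparisons used edgeR 4.0.16 quasi-likelihood tests in R 4.3.3 (TMM, filterByExpr, Benjamini-Hochberg over all genes tested, threshold 0.05). Age and culture fits held 2 groups, dose fits all 8 explants, genotype fits all 5 retinas of an age, and the differences of effects kept the sample as a block. SEs come from the fold change and its F statistic, and 95% intervals from these with the residual and prior degrees of freedom of the fit. Tests were run on simulated data in which few genes changed, evenly in both directions. That setting cannot show how the tests behave where most genes pass, as for P14 or explants against P0. Samples held 1266730 to 10793649 UMIs. No doublet caller was run. Intervals of ratios and floors cover counting error only. Alternatives used DESeq2 1.42.0, limma 3.58.1, other scalings, other filters, and left-out samples or cells. The alternative with P0 cells in the gene range of the explant cells, that without the P14 retinas with 4 amacrine cells, and the Bax to Bcl2l1 ratio were added after the data were seen. The rule named all 9 members in every comparison, and those with enough UMIs to test are given there, for dose and genotype within types by count. From the pathway list, the 5 largest rises and 5 largest falls past the threshold were named for P14 against P0 and explants against P0 over all cells. For each member with at least 100 UMIs in every library, 3 genes of like pattern were sought, of which the text gives the first or all. Promoter windows came from RefSeq (GRCm38.p6, all 9 members matched) and gene positions from the GENCODE annotation of GRCm38. Raw p-values of the ratio were adjusted over its 8 comparisons.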

Additional observations from a re-analysis of the deposited data

Results flagged for a closer look

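Casp9 over all cells at P0 had 1 distant sample: Sstr2 +/- replicate 2 lay at 6.14 CPM (6.145 before rounding) and the other 4 retinas at 5.04 to 5.29, a gap of 0.775 of the range. Of 27 groups of samples examined in this way, 1 held such a sample, and chance gives about 1 in 20. Without that retina Casp9 stayed higher in the explants than at P0.

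Effects that differed between cell types by an interaction test were the following. The fall of Bax at P14 was smaller from photoreceptors to rods than in amacrine cells by 0.92 (log2). Bcl2l11, which fell in amacrine cells on 2 UMIs and did not pass from photoreceptors to rods (0.12), differed by 2.93. The rise of Bax in explants was smaller in amacrine cells than in primary progenitors (difference -0.23). Bbc3, which rose in primary progenitors and did not pass in amacrine cells (0.06), differed by -1.23.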

How the results depend on the processing

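Of 37 values of the 9 genes past the threshold, 18 kept their direction and their side of the threshold in all alternatives run for them. Over 723 values under alternatives, 673 did so, 47 missed the threshold and 3 turned direction. Of the 20 pathway values named, 15 held in all alternatives (389 of 396 values, with 5 below the threshold and 2 turned). The cause of each change was not tested.

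For the difference of age effects between types, the number of members past the threshold went from 2 to 1 with library size alone, with limma on SCTransform values, without the knockout retinas and without the P14 retinas with 4 amacrine cells, and ranged from 1 to 2 with single samples left out. For the difference of culture effects it went from 2 to 1 with no filter on low counts, with DESeq2, and with limma on SCTransform values, to 1 with P0 cells in the gene range of the explant cells (Bcl2l1 gained and both Bax and Bbc3 lost), to 0 with 0 nM explants against wild-type and heterozygous retinas, and ranged from 1 to 2 with single samples left out. Direction turned for Bcl2l11 in Muller glia against primary progenitors with limma on SCTransform values (-0.84), and, with P0 cells in the gene range of the explant cells, for Bcl2 over all cells (0.028) and in primary progenitors (0.025), Birc5 (0.24) and Cdkn1a (0.39) in the explants. That setting could not be fitted for RGCs, because a retina had no UMIs left.

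Counts over all genes moved by more than 1.5 times in some alternatives. For 500 against 0 nM, 22 genes became 288 with no filter, 2 with DESeq2, 84 without the cells with most UMIs and 0 to 323 with single samples left out. For knockout against heterozygous retinas, 0 genes became 8 with DESeq2, 1 without the cells with most UMIs and up to 20 with single samples left out at P0, and 1 became 0 to 31 at P14. With limma, 3342 became 1507 for amacrine cells and 4217 became 2641 for cones of P14 against P0, 3305 became 1509 for the difference of age effects and 2053 became 852 for that of culture effects. In the explants against P0, RGCs went from 1995 to 3275 with no filter, 1019 with limma and 451 with 0 nM explants against wild-type and heterozygous retinas, and that last setting gave 504 for the difference of culture effects, which P0 cells in the gene range of the explant cells brought to 577. With the same 0 nM contrast, amacrine cells went from 3051 to 1767, neurogenic progenitors from 2230 to 950 and primary progenitors from 4625 to 2322. With P0 cells in the gene range of the explant cells, amacrine cells went to 1637, photoreceptors from 3784 to 2411 and primary progenitors to 2728.

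Scaling by library size alone moved the split of higher and lower calls in the explants from 2294 and 2331 to 3357 and 1776 in primary progenitors, from 1082 and 1148 to 1457 and 915 in neurogenic progenitors and from 1843 and 1941 to 2538 and 1523 in photoreceptors. It moved that of the difference of age effects from 1823 and 1482 to 1098 and 2077 and that of culture effects from 858 and 1195 to 590 and 1661. DESeq2 size factors moved P14 amacrine cells from 1594 and 1748 to 1326 and 2305.

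The mean of CPM over single cells, in place of the CPM of sums, left the cell type with the highest mean unchanged in 24 of 27 cases, the exceptions being Bcl2 and Hrk at P14 and Casp9 in the explants. No paired analysis was possible because the annotation numbers no replicates. The replicate numbers used here are names given in barcode order within a condition and pair nothing. Depth limits Hrk (36 to 57 UMIs a library), Bak1 and Casp9, the RGCs of the explants and the amacrine cells of P14.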
